A study of Mus musculus with 21 samples.

Results

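Expression of 10 genes of cytokine signalling was followed in mouse epidermal sheets: the transcription factor Stat3, its feedback inhibitor Socs3, the receptor chains Osmr, Il6st, Il6ra, Il20ra, Il20rb, Il22ra1 and Il17ra, and the cytokine Il24. They were taken by name and are 10 of the 49315 genes in the count tables. The series studied AP-2 transcription factors in adult epidermis and held 21 samples in 7 groups of 3. Of these, 8 had counts and 13 were listed at 0 for every gene. The comparison was between 3 libraries labelled K14CreTfap2afl/flTfap2bfl/fl at 6 months, called double knockout libraries here, and 3 libraries of the strain-specific control at 6 months, whose genotype is labelled WT. Another 2 libraries, replicates 1 and 2 labelled K14CreTfap2bfl/fl at 3 weeks, are given beside them as values, since controls of 3 weeks were not analysed here. K14Cre is Cre recombinase driven by the keratin 14 promoter, which is active in basal keratinocytes. Cells of the sheet that do not descend from cells with an active promoter keep both genes. The labels do not say that the replicates of a group came from separate animals, so the p-values below measure only the spread between these samples.

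STAT3 is a transcription factor that is phosphorylated by Janus kinases bound to cytokine receptors and then moves to the nucleus. Receptors of the IL-6 family pair a ligand-specific chain, such as the IL-6 receptor or the oncostatin M receptor encoded by Osmr, with the shared signalling chain encoded by Il6st. Keratinocytes also carry receptors for IL-20 family cytokines: the chain encoded by Il20rb pairs with that of Il20ra or of Il22ra1, and the latter pairs with that of Il10rb to bind IL-22. STAT3 induces Socs3, whose product blocks the kinases, and the pathway is known in skin for its part in wound repair and in psoriasis-like inflammation.

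Of the 10 genes, 9 had enough counts for the test, and 2 of these rose in the double knockout libraries: Osmr, to about 2 times the control level, and Il20ra, to about 2.5 times. None fell, and 7 did not pass the test. The test was edgeR's quasi-likelihood test with Benjamini-Hochberg adjustment over 17755 genes and a threshold of 0.05. It called 14.9% of all genes tested, 6.26% as higher and 8.59% as lower. The balance of directions depended on the scaling: 1111 genes were higher and 1526 lower with TMM factors, and 1376 higher and 1327 lower with total counts. At an unadjusted p under 0.05, Il17ra was also lower, and 32% of all genes tested passed that threshold. DESeq2 and limma-voom each called 2 of the 9 genes higher and 0 lower. The median log2 fold change of the 9 genes was 0.020, with 5 above 0 and 4 below, beside -0.035 for all genes tested. In simulated data with 3 libraries per group, 17185 genes were tested, of which 93 were changed 2-fold and 96 were changed 4-fold. Of these, 32.3% and 69.8% were called. Far fewer genes were changed there than were called here, which makes the adjusted threshold stricter, so these shares do not give the sensitivity for the 9 genes. A gene that missed the threshold was not shown to be unchanged.

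The libraries held 11318181 to 17746284 counts each. Neither gene named in the genotype was called lower in the libraries labelled double knockout. Tfap2a had 229, 213 and 309 normalized counts (CPM, scaled to 1000000 counts of a library) against 165, 140.3 and 210.1 in the controls, each above every control (log2 fold change 0.47, adjusted p = 0.118 by edgeR). Tfap2b had 53.8, 57.2 and 56.9 CPM against 57.3, 86.6 and 71.0, each below every control but narrowly so for control replicate 1 (log2 fold change -0.43, 95% interval -0.81 to -0.05, unadjusted p = 0.0289, adjusted p = 0.111 by edgeR). The values of Tfap2a do not show a loss. Counts were summed over all exons of a gene and single exons were not examined, so these values neither check nor contradict the label. Every direction below refers to labelled groups. Control replicates 1 and 2 stood apart: 1420 odorant and vomeronasal receptor genes, which the epidermis is not known to use, had 1.61 and 3.19 counts per exonic kb there, and 0.097 to 0.195 in the other 6 libraries. The summed CPM of 7 basal keratinocyte markers was 8224 to 10485 in controls and 15753 to 18754 in double knockout libraries, and 5 of the 7 rose. Another 1 of the 7 had a log2 fold change of -1.39 and was not called. For 7 suprabasal markers the sum was 8797 to 10707 and 9945 to 13039 CPM, and 1 of the 7 rose. These sheets hold several cell types, so more or fewer cells of a type and more or less RNA per cell cannot be told apart.

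The promoters of Osmr and Il20ra are shown because these genes rose, and that of Socs3 because it holds a match to the STAT motif. The sequences are from RefSeq (GRCm38.p6), which gave promoters for 8 of the 10 genes. Il17ra and Il24 had no entry. Each shows the 250 bases before the annotated start and the first 20 after it, 5′ to 3′ on the gene's strand: Osmr at chr15:6874294-6874563 (minus), Il20ra at chr10:19712337-19712606 (plus) and Socs3 at chr11:117969347-117969616 (minus). Capitals mark the match to the AP-1 motif TGANTCA in Osmr and Il20ra and to the STAT motif TTCNNNGAA in Socs3.
Osmr: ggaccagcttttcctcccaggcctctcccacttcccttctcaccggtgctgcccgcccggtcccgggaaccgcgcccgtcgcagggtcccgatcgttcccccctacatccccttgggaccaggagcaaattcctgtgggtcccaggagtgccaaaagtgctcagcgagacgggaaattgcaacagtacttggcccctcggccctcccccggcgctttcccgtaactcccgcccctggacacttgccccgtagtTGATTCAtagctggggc
Il20ra: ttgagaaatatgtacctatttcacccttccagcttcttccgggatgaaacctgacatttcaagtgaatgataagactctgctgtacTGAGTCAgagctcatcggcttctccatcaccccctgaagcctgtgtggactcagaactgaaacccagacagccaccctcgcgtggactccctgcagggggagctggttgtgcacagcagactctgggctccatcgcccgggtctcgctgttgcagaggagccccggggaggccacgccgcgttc
Socs3: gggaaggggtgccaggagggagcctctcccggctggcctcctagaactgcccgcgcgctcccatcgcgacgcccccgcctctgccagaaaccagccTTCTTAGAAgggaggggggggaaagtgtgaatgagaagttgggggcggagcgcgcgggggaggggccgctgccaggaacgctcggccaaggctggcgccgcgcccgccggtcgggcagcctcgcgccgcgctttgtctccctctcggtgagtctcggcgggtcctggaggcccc
Each motif reads the same on both strands, and no matches of different motifs overlapped. Positions are counted from +1 at the RefSeq start. On the minus strand, the gene spans used for counting start at 6874969 for Osmr and at 117970047 for Socs3. Both printed windows lie inside those spans, so their positions, and the word promoter, hold for the RefSeq start only. The AP-1 match of Osmr, TGATTCA, ran from 4 to 10, that of Il20ra, TGAGTCA, from -164 to -158, and the STAT match of Socs3, TTCTTAGAA, from -154 to -146. In windows of 300 bases, reaching 50 bases past the start, the STAT motif was in 1 of the 8 promoters and in 8.30% of all 32851 promoters of the table. The AP-2 motif GCCNNNGGC was in 3 of the 8 (Stat3, Il6st and Il22ra1) and in 16.6% of all. AP-1 was in 3 of the 8 (the third is Il22ra1) and in 7.81% of all, and this motif was added after the sequences had been read. A match is a description of letters and not of a bound site.

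**Figure D1:**
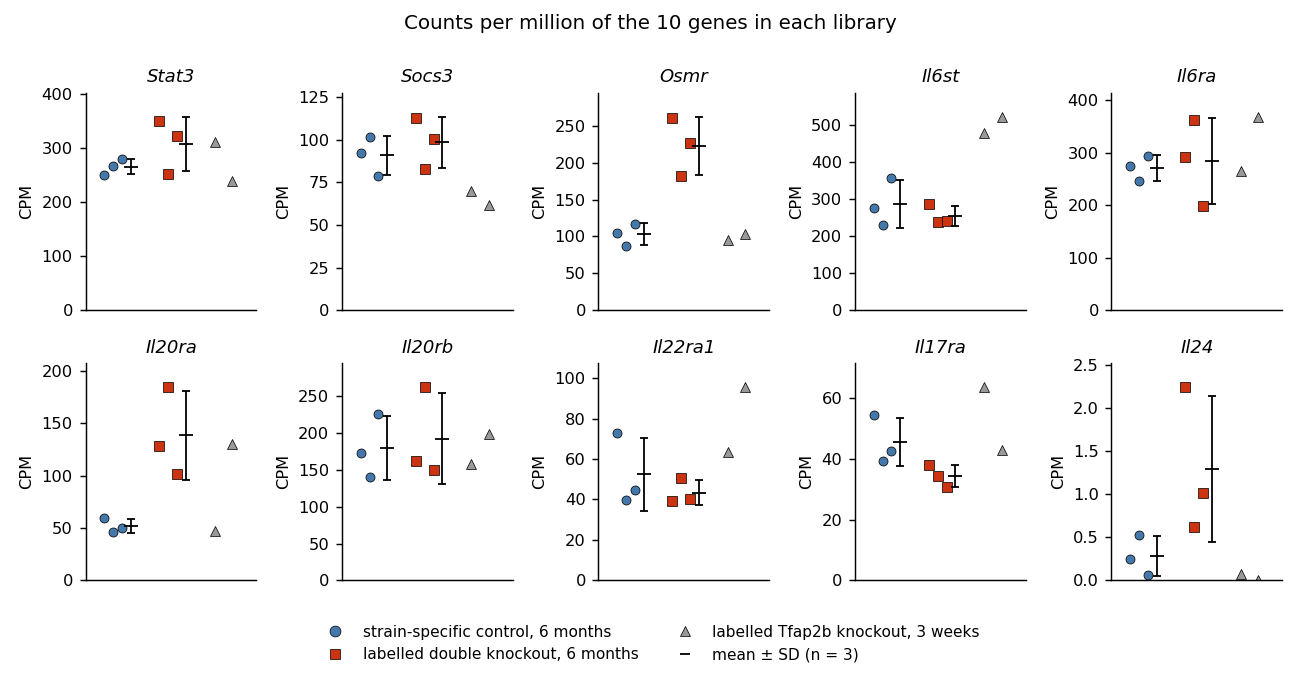
CPM of the 10 genes in each of the 8 libraries, 1 panel per gene: circles are controls and squares double knockout libraries at 6 months, bars are the mean ± SD of 3 libraries, and triangles are the 2 libraries labelled Tfap2b knockout at 3 weeks. Osmr, Il20ra and Il24 have all 3 double knockout libraries above all 3 controls, Il17ra has them below, and in the other 6 panels the groups at 6 months overlap. Each panel has its own axis, and Il24, which was not tested, reaches only 2.25 CPM.

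Il24, which encodes a secreted IL-20 family cytokine that signals through the receptors holding the Il20rb chain, was barely detected. Il24 (ENSMUSG00000026420, chr1:130882074-130887454, minus strand) had 3, 6 and 1 counts in the control libraries and 31, 9 and 18 counts in the double knockout libraries. Each double knockout library lay above each control, and the 2 libraries at 3 weeks had 1 and 0 counts. Pooled, this was 10 of 38718715 counts against 58 of 46222153, a ratio of 4.86 with a 95% exact interval of 2.46 to 10.7 that covers counting error only. The ratio ran from 3.23, without double knockout replicate 1, to 8.60, without control replicate 2. At the receptor-gene background, 2.23, 4.42 and 0.204 counts would fall on Il24 in control replicates 1 to 3, beside the 3, 6 and 1 counts seen. With that background subtracted the ratio was 12.1, and against control replicate 3 alone it was 19.3 (3.33 to 774).
Il24 did not pass the filter on low counts. Without the filter, edgeR gave a log2 fold change of 1.82 with an adjusted p of 0.200, and the adjusted p was 0.123 to 0.266 over the 6 fits that included the gene. The difference in Il24 was thus not called.

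Genes for IL-6 family ligands were also low. Of 10 in this list, 6 were tested and none passed by edgeR, at an unadjusted p under 0.05, by DESeq2 or by limma-voom, with a median log2 fold change of -0.47. Clcf1, a neurotrophic cytokine of this family, was the most abundant, at 11.5 ± 3.29 CPM (SD, n = 3) in controls and 14.3 ± 7.66 CPM (SD, n = 3) in double knockout libraries. Il6 was at 0.50, 1.24 and 0.33 CPM in controls and at 0.80, 0.34 and 0.17 CPM in double knockout libraries. Osm, which encodes the ligand of the Osmr receptor, was at 1.58, 0.44 and 0 CPM and at 0.36, 0 and 0.11 CPM. For both cytokines the groups overlapped. Of 6 genes for IL-10 and IL-20 family ligands besides Il24, Il10, an anti-inflammatory cytokine, was the only one tested. Il10 fell from 9.05, 1.502 and 1.95 CPM to 0.65, 0.68 and 0.11 CPM (log2 fold change -2.88, SE 0.88, adjusted p = 0.0402 by edgeR). Control replicate 1 was the highest of the 6 libraries. Leaving it out gave Il10 a log2 fold change of -1.67 with an adjusted p of 0.194. The call was also lost in each of the 3 fits that left out a double knockout library, at -3.10 to -2.44. No gene of the 6 in the IL-17 ligand list had enough counts to be tested.

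Among the IL-6 family receptors, the chain specific to oncostatin M rose and the shared chain did not pass the test. Osmr (ENSMUSG00000022146, chr15:6813577-6874969, minus strand), whose product binds oncostatin M together with the Il6st chain and forms the IL-31 receptor with the Il31ra chain, had 104, 87.6 and 117 CPM in the controls. In the double knockout libraries it had 261, 181 and 226 CPM. The groups did not overlap, with the lowest double knockout library, replicate 2, well above the highest control. Over all genes tested, 38.7% had groups that did not overlap, 22.5% with the double knockout libraries above. The mean of Osmr was 103 ± 14.7 CPM (SD, n = 3) in controls and 223 ± 39.8 CPM (SD, n = 3) in double knockout libraries, a log2 fold change of 1.04 (SE 0.16, 95% interval 0.67 to 1.40, adjusted p = 0.00492 by edgeR). This is 2.05-fold, with an interval of 1.59 to 2.65. Leaving out any 1 library kept the call, at 0.94 to 1.22. Osmr passed in 15 of 16 alternative analyses. With control replicate 3 as the only control, which sets aside both control libraries of high background, the log2 fold change was 0.87 and the adjusted p of edgeR was 0.0908, under the assumption that the lone control varies like the other libraries. With the background subtracted it was 0.99 (adjusted p = 0.00561).

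Il6st (ENSMUSG00000021756, chr13:112464070-112510086, plus strand), the signal-transducing chain of the whole IL-6 family, had 276, 229 and 357 CPM in controls and 288, 238 and 242 CPM in double knockout libraries. The groups overlapped, with control replicate 3 the highest. The means were 287 ± 64.3 CPM and 256 ± 27.7 CPM (SD, n = 3 each), and the log2 fold change was -0.24 (SE 0.17, 95% interval -0.62 to 0.13, adjusted p = 0.345 by edgeR). Without control replicate 3 it was 0.020. Il6ra (ENSMUSG00000027947, chr3:89864059-89913196, minus strand), the ligand-binding chain for IL-6, had 275, 245 and 294 CPM in controls and 291, 361 and 198 CPM in double knockout libraries. The double knockout libraries lay on both sides of the controls, replicate 2 above and replicate 3 below all of them. The log2 fold change of Il6ra was -0.013 (SE 0.20, 95% interval -0.45 to 0.43, adjusted p = 0.972), and its sign depended on the scaling. The antisense gene Gm42809 overlaps Il6ra with at most 0.88% of its counts in these 6 libraries.

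Of 7 other IL-6 family receptor genes, all tested, 1 fell and none rose, with a median log2 fold change of -0.80. Il11ra1, the IL-11 receptor, fell by 1.26 on the log2 scale (SE 0.24, adjusted p = 0.0103 by edgeR), with a mean of 14.4 ± 2.95 CPM in controls and 6.27 ± 0.54 CPM in double knockout libraries (SD, n = 3 each). Without double knockout replicate 1 its log2 fold change was -1.22 and it no longer passed. Lifr, the receptor for leukaemia inhibitory factor, was the most abundant of those not called, at 177 ± 57.5 CPM and 153 ± 21.3 CPM (SD, n = 3 each; log2 fold change -0.29, adjusted p = 0.452 by edgeR).

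**Figure D2:**
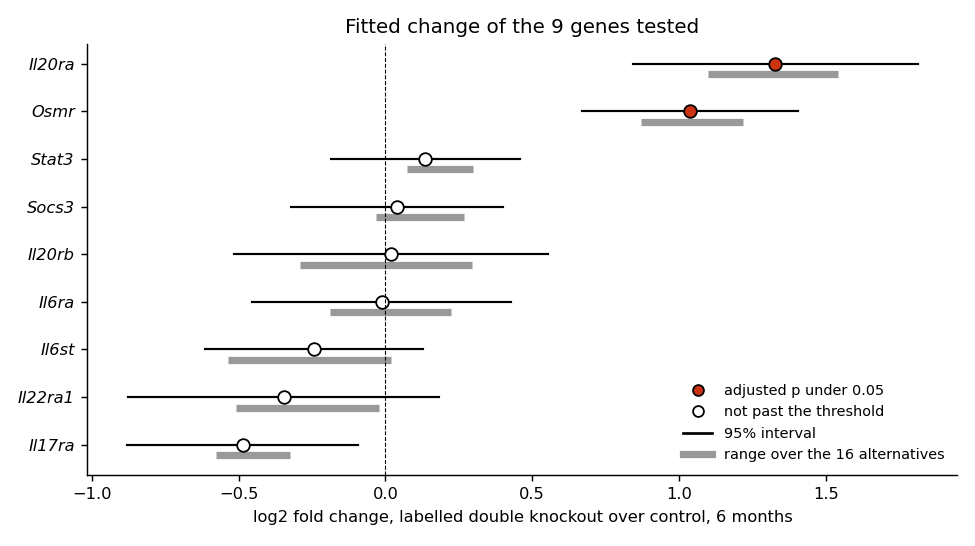
Log2 fold change (double knockout minus control at 6 months) of the 9 genes tested by edgeR. Points are estimates, thin black lines 95% intervals and thick grey lines the range over 16 alternative analyses. Osmr (1.04) and Il20ra (1.33) have intervals above 0, that of Il17ra (-0.49) lies below 0 without passing the adjusted threshold, and the other 6 intervals include 0.

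Among the IL-20 family receptor chains, Il20ra rose while Il20rb and Il22ra1 did not pass the test. Il20ra (ENSMUSG00000020007, chr10:19712570-19760053, plus strand), which pairs with the Il20rb chain to bind IL-19, IL-20 and IL-24, had 59.5, 46.6 and 50.4 CPM in control libraries. Its double knockout values were 129, 185 and 101.4 CPM. All 3 double knockout libraries lay above all 3 controls, with replicate 2 the highest. The mean was 52.1 ± 6.62 CPM (SD, n = 3) in controls and 138 ± 42.5 CPM (SD, n = 3) in double knockout libraries, a log2 fold change of 1.33 (SE 0.22, 95% interval 0.84 to 1.81, adjusted p = 0.00572 by edgeR). This is 2.51-fold, with an interval of 1.80 to 3.52. Each library left out in turn kept the call, at 1.10 to 1.54. It passed in 14 of 16 alternative analyses. The log2 fold change was 1.33 with an adjusted p of 0.0507 when the libraries at 3 weeks shared in the fit, 1.40 with an adjusted p of 0.136 with control replicate 3 as the only control, and 1.26 with an adjusted p of 0.00771 with the background subtracted, all by edgeR.

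An antisense gene, Gm33332 (chr10:19716152-19718704, minus strand), lies within Il20ra, and its counts were 13.3% to 26.2% of those of Il20ra in the 6 libraries. Gm33332 rose too, with a log2 fold change of 1.30 (SE 0.36, adjusted p = 0.0402 by edgeR). Whether the counting used strand is not given in the sources used here, so reads of the 2 genes cannot be told apart. Il20ra had the largest change of the 9 genes tested, and the genes whose pattern was most like it were sought over all 8 libraries, by the root mean square difference of centred log2(CPM + 1) values. Of 17754 genes compared, Gm33332 was closest (0.25), followed by Prr11 (0.27), Scin (0.28), Gm15414 (0.29) and Slc2a12 (0.29). Osmr stood at 0.54, at rank 882. In the libraries at 3 weeks Il20ra was 46.9 CPM in replicate 1 and 130.3 CPM in replicate 2: the former was below 2 of the 3 controls at 6 months and the latter within the range of the double knockout libraries.

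Il20rb (ENSMUSG00000044244, chr9:100457719-100486788, minus strand) had 174, 140.4 and 226 CPM in controls and 163, 263 and 151 CPM in double knockout libraries. The groups overlapped almost fully. The log2 fold change of Il20rb was 0.020 (SE 0.24, 95% interval -0.52 to 0.55, adjusted p = 0.964 by edgeR), with a sign that depended on the processing. Il22ra1 (ENSMUSG00000037157, chr4:135728172-135752140, plus strand), the chain through which keratinocytes receive IL-22, had 72.7, 39.8 and 44.5 CPM in controls and 39.4, 50.7 and 40.2 CPM in double knockout libraries. Control replicate 1 stood above the other 5 libraries, which overlapped. The log2 fold change of Il22ra1 was -0.35 (SE 0.24, 95% interval -0.88 to 0.18, adjusted p = 0.344 by edgeR). Of 4 other receptor genes of the IL-10 and IL-20 families, none passed by edgeR, at an unadjusted p under 0.05, by DESeq2 or by limma-voom, and their median log2 fold change was 0.16. Il22ra2, a soluble binding protein that blocks IL-22, was at 57.1 ± 52.4 CPM and 94.96 ± 55.5 CPM (SD, n = 3 each; adjusted p = 0.622 by edgeR).

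Il17ra (ENSMUSG00000002897, chr6:120463247-120487559, plus strand) encodes the common chain of the IL-17 receptors, which signals through NF-kappaB rather than STAT3. It had 54.6, 39.4 and 42.7 CPM in controls and 37.9, 34.3 and 30.7 CPM in double knockout libraries. Every double knockout library lay below every control, by a narrow margin between double knockout replicate 1 and control replicate 2, as in 16.3% of all genes tested. The means were 45.6 ± 7.97 CPM and 34.3 ± 3.62 CPM (SD, n = 3 each). The log2 fold change was -0.49 (SE 0.18, 95% interval -0.88 to -0.09, unadjusted p = 0.0200, adjusted p = 0.0889 by edgeR), so the difference was not called. It was below 0 and not called in all 16 alternative analyses, between -0.58 and -0.33. Of 8 other IL-17 receptor and adaptor genes, none was called by edgeR or limma-voom, while DESeq2 and an unadjusted p under 0.05 each gave 2 higher and 1 lower. Their median log2 fold change was 0.34. Nfkbiz, a nuclear cofactor of NF-kappaB that IL-17 induces in keratinocytes, was the most abundant, at 476 ± 74.4 CPM and 649 ± 126 CPM (SD, n = 3 each; log2 fold change 0.37, adjusted p = 0.164 by edgeR).

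Stat3 and Socs3 did not pass the test. Stat3 (ENSMUSG00000004040, chr11:100885098-100939540, minus strand) had 249.97, 267 and 279 CPM in controls and 349, 252 and 321 CPM in double knockout libraries. Double knockout replicate 2 lay among the controls and the other 2 above them. The means were 265 ± 14.6 CPM and 307 ± 50.3 CPM (SD, n = 3 each), and the log2 fold change was 0.14 (SE 0.14, 95% interval -0.19 to 0.46, adjusted p = 0.546 by edgeR). Stat5a overlaps the end of Stat3 on the opposite strand, but only from 100885098 to 100885169. Reads of that short overlap cannot be told apart. The total counts of Stat5a, most of whose span lies outside the overlap, equalled 11.3% to 23.1% of those of Stat3 in these libraries. Socs3 (ENSMUSG00000053113, chr11:117966079-117970047, minus strand), the feedback inhibitor with the STAT match shown above, had 92.0, 102 and 78.7 CPM in controls and 113, 82.6 and 100.4 CPM in double knockout libraries. The groups overlapped. The log2 fold change of Socs3 was 0.041 (SE 0.16, 95% interval -0.32 to 0.40, adjusted p = 0.886 by edgeR), with a sign that depended on the processing. The data are of RNA, so phosphorylation of STAT3 was not measured.

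Levels of different genes can be compared only per length, as RPKM (CPM per kb of exon). In the controls Il20rb was the highest of the 10 genes at 42.8 ± 10.3 RPKM (SD, n = 3). It was followed by Socs3 (31.4 ± 3.98 RPKM), Il6ra (31.4 ± 2.82 RPKM), Stat3 (27.9 ± 1.54 RPKM), Il6st (25.9 ± 5.79 RPKM), Il20ra (21.5 ± 2.73 RPKM) and Il22ra1 (20.4 ± 6.94 RPKM). Each of the first 6 overlapped the next in its range over the 3 libraries. Osmr (8.498 ± 1.21 RPKM), Il17ra (5.26 ± 0.92 RPKM) and Il24 (0.20 ± 0.17 RPKM) were each below the gene before without overlap. In the double knockout libraries Il20ra had the highest mean, 56.9 ± 17.5 RPKM (SD, n = 3), ahead of Il20rb at 45.7 RPKM, with overlapping ranges. Osmr was at 18.4 ± 3.29 RPKM, still below Il6st at 23.0 RPKM.

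Ratios of receptor chains that pair or share a partner, in counts per exonic kb within each library, do not depend on how libraries are scaled. They were chosen after the values had been seen, and 11 were computed. The ratio of Osmr to Il6st was 0.345, 0.350 and 0.300 in controls and 0.830, 0.698 and 0.858 in double knockout libraries, 2.39 times higher, without overlap. That of Osmr to Lifr was 0.426, 0.351 and 0.899 against 1.67, 1.02 and 1.10, and that of Osmr to Il31ra, its partner for IL-31, was 3.42, 1.24 and 2.49 against 36.3, 47.3 and 4.37. Lifr is not a partner of Osmr but, like it, pairs with Il6st. The 3 double knockout libraries were above the controls in all 3 of these ratios, though for Il31ra replicate 3 lay near the controls. Il31ra itself had 9.22, 21.5 and 14.2 CPM in controls and 2.17, 1.16 and 15.7 CPM in double knockout libraries. It was not called (log2 fold change -1.27, adjusted p = 0.388 by edgeR), so the high ratios of replicates 1 and 2 rest largely on a low denominator. Il20ra to Il20rb gave 0.592, 0.574 and 0.385 against 1.37, 1.22 and 1.17, 2.45 times higher. In every control the Il20ra chain had fewer counts per kb than its partner Il20rb, and in every double knockout library it had more. Il20ra to Il22ra1, which share the Il20rb partner, gave 0.865, 1.24 and 1.197 against 3.45, 3.86 and 2.67.

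Il17ra itself was not called. Against the partners examined, Il17rc and Il17re, its ratio was below every control in all 3 double knockout libraries. Ratios to the other IL-17 receptor genes, Il17rb and Il17rd, were not computed. Its ratio to Il17rc, the partner for IL-17A and IL-17F, was 0.299, 0.177 and 0.136 in controls and 0.121, 0.098 and 0.113 in double knockout libraries. Its ratio to Il17re, the partner for IL-17C, was 1.61, 1.37 and 0.962 against 0.714, 0.507 and 0.545. Each of these 7 ratios gave a two-sided exact permutation p of 0.1, the smallest that 3 libraries against 3 allow, and 0.157 after adjustment over the 11 ratios, so none can pass a threshold of 0.05. All 7 have Osmr, Il20ra or Il17ra as numerator, genes whose CPM groups already did not overlap. The share of other gene pairs without overlap was not computed. The other 4 ratios overlapped between groups: Lifr to Il6st (0.995 times the control), Il6ra to Il6st (1.13 times), Il22ra1 to Il20rb (0.811 times) and Il22ra1 to Il10rb (0.765 times).

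**Figure D3:**
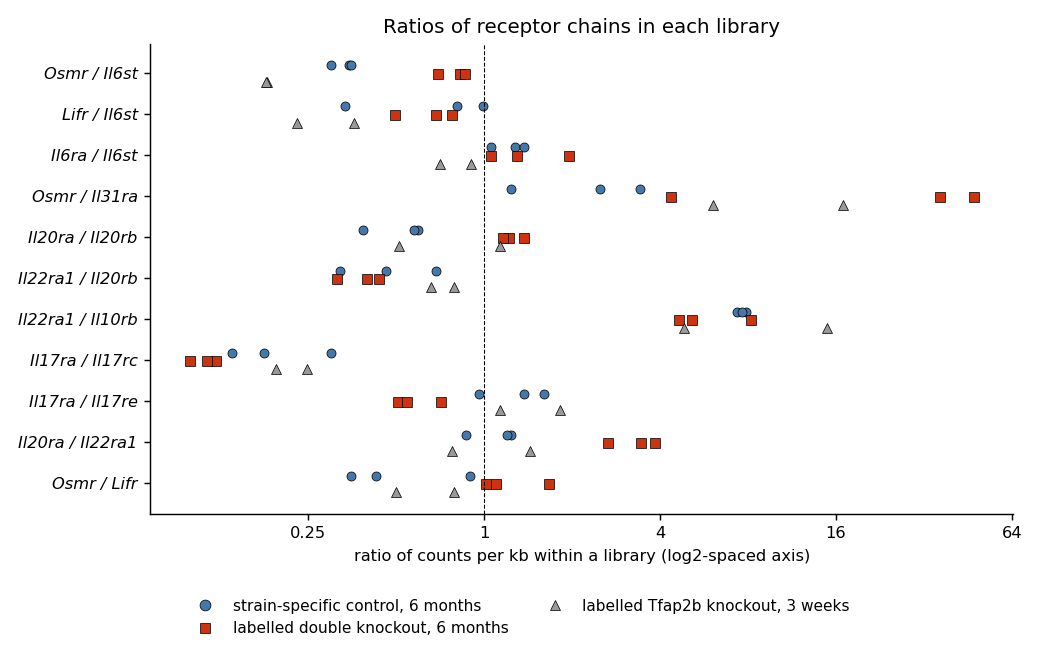
Ratio of counts per exonic kb of 11 pairs of receptor chains in each of the 8 libraries, on an axis spaced in log2 steps: circles are controls and squares double knockout libraries at 6 months, triangles the libraries labelled Tfap2b knockout at 3 weeks, and the dashed line marks a ratio of 1. Osmr and Il20ra are higher against each other chain shown in all 3 double knockout libraries. Il17ra is lower against Il17rc and Il17re, and 4 ratios overlap between the groups at 6 months.

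Because the basal markers rose, each gene was also set against their summed CPM, a choice made after the values had been seen. Per 1000 CPM of basal markers, Osmr was 12.7, 10.7 and 11.2 in controls and 16.5, 10.8 and 12.1 in double knockout libraries, and the groups overlapped (exact permutation p = 0.6, two-sided). Il20ra was 7.22, 5.66 and 4.81 against 8.16, 10.997 and 5.41, also overlapping (exact permutation p = 0.3, two-sided). On that scale Stat3, Socs3, Il6st, Il6ra, Il20rb, Il22ra1 and Il17ra were each below the controls in all 3 double knockout libraries (exact permutation p = 0.1 each, the smallest possible). The marker sum was itself higher in every double knockout library, so a gene of unchanged CPM falls on this scale. The share of all genes that did so was not computed, and no change of these genes is read from it. The part of basal cells in the rises of Osmr and Il20ra was not tested.

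Markers of immune and dermal cells moved less evenly. The 10 neutrophil markers summed to 0.846 to 11.1 CPM in controls and 36.5 to 271 CPM in double knockout libraries, and 1 of 6 tested, Cxcr2, rose. S100a8, S100a9 and Cxcr2 carried that sum, and keratinocytes can also express S100a8 and S100a9. Ly6g, which defines neutrophils, was at 0.17, 0.35 and 0 CPM in controls and at 0.072, 0 and 0 CPM in double knockout libraries. The 11 T cell markers summed to 103 to 185 CPM and 97.5 to 227 CPM, with 1 of 10 tested higher and 1 lower. The 10 Langerhans and other myeloid markers summed to 550.4 to 625 CPM and 448 to 619 CPM, with 1 lower. The 8 fibroblast markers summed to 60.2 to 172 CPM and 27.9 to 50.9 CPM, with 1 higher and 3 lower. Endothelial markers (4.82 to 21.5 CPM against 6.27 to 8.26 CPM) and melanocyte markers (36.5 to 75.9 CPM against 25.8 to 53.3 CPM) had 0 called by edgeR. The part of these cells in the changes of the receptor genes was not tested.

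The wider pathway was described by 12 lists of 120 other genes, of which 95 were tested. By edgeR 6 rose, 13 fell and 76 were not called, beside 14.9% of all genes tested, and their median log2 fold change was -0.15. The count given for each list stands beside 6.26% of all genes tested called higher and 8.59% called lower. No list was tested as a set. Scaled to total counts instead of by TMM factors, 10 were higher and 11 lower. With control replicate 3 as the only control, 3 were called. Among the Janus kinases, which phosphorylate STAT proteins at the receptor, 2 of 4 rose. Tyk2, which serves the IL-6, IL-10 and IL-20 families, had 15.9, 18.996 and 37.1 CPM in controls and 49.6, 49.4 and 52.0 CPM in double knockout libraries (log2 fold change 0.99, SE 0.28, adjusted p = 0.0430 by edgeR). Jak3, which works with the common gamma chain of lymphocytes, had 6.31, 8.75 and 7.81 CPM against 13.3, 17.2 and 15.3 CPM (0.92, SE 0.23, adjusted p = 0.0282). For both genes the groups did not overlap. Each passed in only 1 of 6 fits with a library left out, the one without control replicate 3, and in the other 5 the log2 fold change was 0.78 to 1.05 for Tyk2 and 0.81 to 1.05 for Jak3. Jak1, the most abundant of the family, was at 333 ± 19.9 CPM and 283 ± 16.7 CPM (SD, n = 3 each; adjusted p = 0.110 by edgeR).

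Of 6 other STAT genes 5 were tested. Stat6, the STAT of IL-4 and IL-13, was at 88.3 CPM in controls and 109.7 CPM in double knockout libraries (log2 fold change 0.24, adjusted p = 0.326 by edgeR).

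The inhibitors of the pathway other than Socs3 numbered 16, all tested, and 3 fell and none rose, with a median log2 fold change of -0.055. Cish, a SOCS family member induced by STAT5, had 117, 83.0 and 72.1 CPM in controls and 42.7, 28.4 and 37.1 CPM in double knockout libraries, without overlap (log2 fold change -1.41, SE 0.22, adjusted p = 0.0048 by edgeR). It passed with each library left out, and its log2 fold change ran from -1.49 to -1.05 over 16 alternative analyses. Socs7, another SOCS family gene, had a log2 fold change of -0.58 (adjusted p = 0.0418) and Pias1, which encodes a SUMO ligase that inhibits STAT proteins, one of -0.47 (adjusted p = 0.0403), both by edgeR. Both lost the call with any of the 6 libraries left out, at -0.64 to -0.37 for Socs7 and -0.53 to -0.38 for Pias1. Ptpn11, a phosphatase, was the most abundant not called, at 112 ± 18.4 CPM and 131 ± 0.92 CPM (SD, n = 3 each; adjusted p = 0.502 by edgeR).

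**Figure D4:**
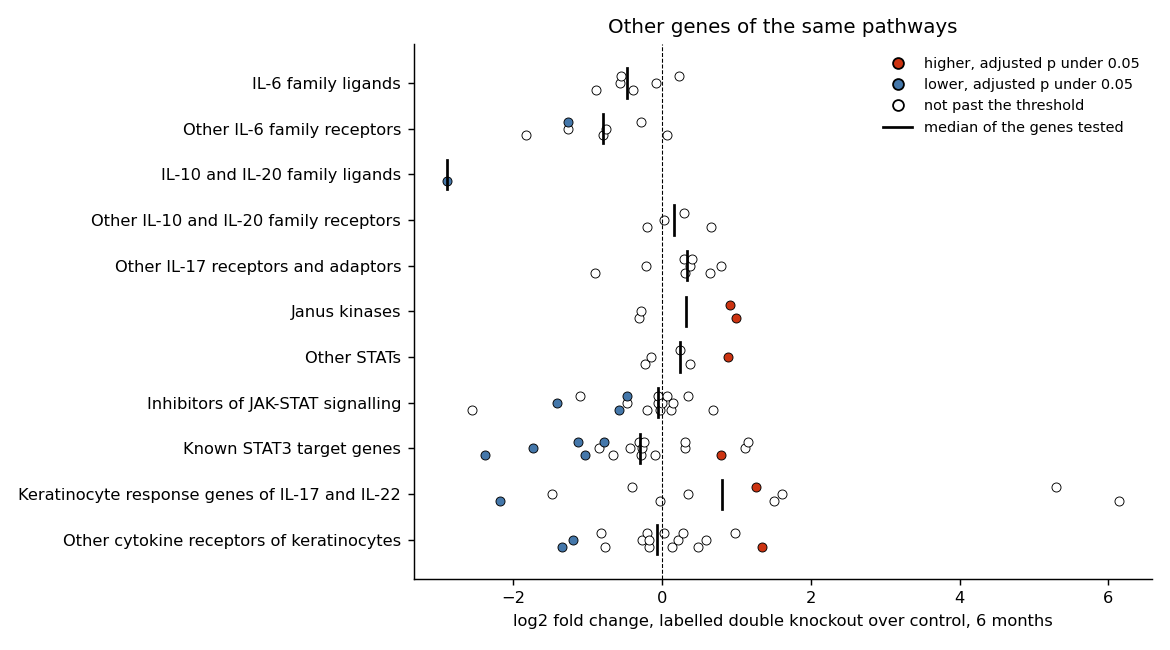
Log2 fold change (double knockout minus control at 6 months) of the tested genes of 11 pathway lists, 1 point per gene, coloured by edgeR's call, with a bar at each list's median. Called genes are 6 higher and 13 lower of 95, spread over 8 of the 11 lists, and 76 are not called.

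Of 20 genes known as targets of STAT3, 18 were tested, 5 fell and 1 rose, with a median log2 fold change of -0.30. Over all genes tested, 8.59% were called lower and 6.26% higher, with a median of -0.035. The list was not tested as a set. The 5 that fell were Fosl1 and Junb, which encode AP-1 subunits, Nfil3, a transcriptional repressor, and the serine/threonine kinases Pim1 and Pim3. Junb had 547, 572 and 392 CPM in controls and 253, 238 and 286 CPM in double knockout libraries (log2 fold change -1.03, SE 0.17, adjusted p = 0.00589 by edgeR). Pim3 had 152, 157 and 107 CPM against 66.5, 76.0 and 58.7 CPM (-1.13, SE 0.18, adjusted p = 0.00504). The groups of Junb and Pim3 did not overlap, and both passed with each library left out. Each of those fits kept a control library of high background, and control replicate 3 was the lowest control for both genes. Over 16 alternative analyses the log2 fold change ran from -1.11 to -0.65 for Junb and from -1.20 to -0.74 for Pim3. Nfil3 had 38.3, 44.8 and 20.9 CPM against 9.56, 8.52 and 14.4 CPM (-1.74, SE 0.32, adjusted p = 0.0099).

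Pim1 had 199, 159 and 149 CPM against 88.6, 110.7 and 111 CPM (-0.78, SE 0.16, adjusted p = 0.0143 by edgeR). Nfil3 and Pim1 lost the call in 1 of the 6 fits, the one without double knockout replicate 1, at -1.60 and -0.63. Over 16 alternative analyses Nfil3 ran from -1.96 to -0.99 and Pim1 from -0.86 to -0.58. Fosl1 had 473, 218 and 158 CPM against 74.7, 27.9 and 70.5 CPM (-2.37, SE 0.55, adjusted p = 0.0391 by edgeR). It kept the call only without control replicate 3. In the other 5 fits its log2 fold change was -2.54 to -1.77, the smallest without control replicate 1. The gene that rose, Ccnd1, encodes cyclin D1 of the cell cycle and had 67.6, 55.0 and 60.2 CPM in controls and 109, 94.8 and 131 CPM in double knockout libraries, without overlap (log2 fold change 0.80, SE 0.16, adjusted p = 0.0135 by edgeR). Without control replicate 2 or double knockout replicate 1 it was 0.73 or 0.87 and no longer passed. Hif1a, the hypoxia factor, was the most abundant target not called, at 340.5 ± 74.9 CPM and 444 ± 62.5 CPM (SD, n = 3 each; adjusted p = 0.274 by edgeR). Pim1 and Ccnd1 were named after their values had been seen, to complete the count.

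**Figure D5:**
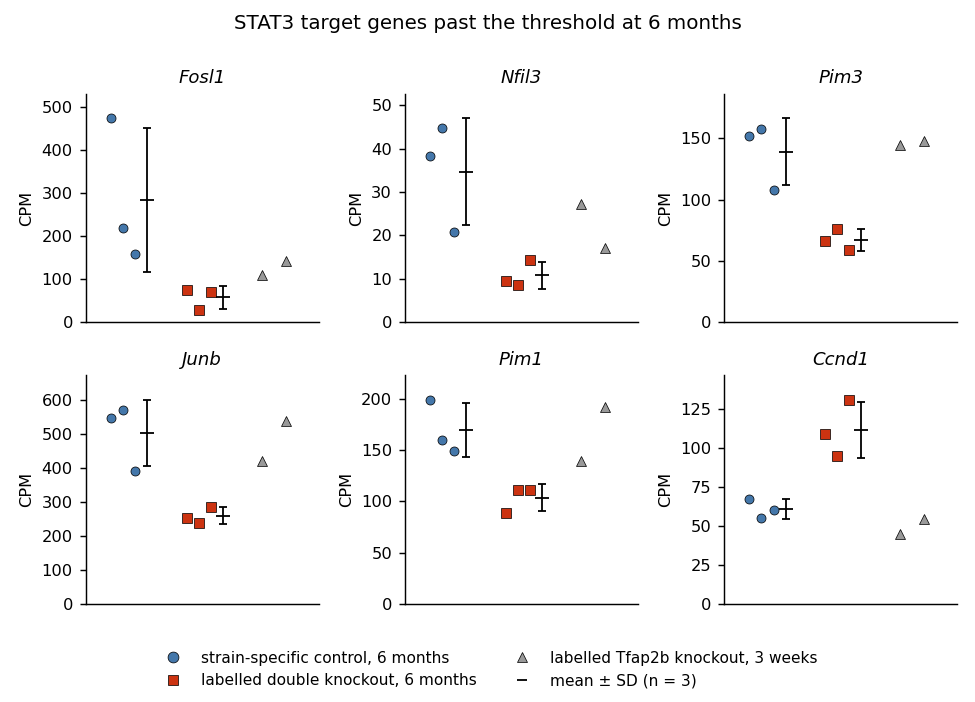
CPM of the 6 called STAT3 target genes in each library, with circles for controls and squares for double knockout libraries at 6 months, bars for the mean ± SD of 3 libraries, and triangles for the libraries labelled Tfap2b knockout at 3 weeks. Fosl1, Nfil3, Pim3, Junb and Pim1 lie lower and Ccnd1 higher in all 3 double knockout libraries than in any control.

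Of 17 response genes of IL-17 and IL-22 in keratinocytes, 10 were tested, 1 rose and 1 fell, with a median log2 fold change of 0.81. DESeq2 called 3 higher and 2 lower, and limma-voom 1 higher and 0 lower. The largest log2 fold changes in this list were not called by edgeR and were named after their values had been seen. S100a8, an alarmin of stressed keratinocytes and of neutrophils, had 2.08, 0.27 and 0.065 CPM in controls and 24.0, 4.23 and 172 CPM in double knockout libraries (6.14, SE 2.07, adjusted p = 0.119 by edgeR). Its partner S100a9 had 0.58, 0.71 and 0.33 CPM against 7.60, 2.52 and 70.8 CPM (5.30, SE 1.64, adjusted p = 0.0797). The groups of both genes did not overlap, with double knockout replicate 3 far above the other libraries. Il1f9, which encodes the cytokine IL-36 gamma, had 57.7, 36.6 and 48.0 CPM in controls and 98.9, 80.5 and 179 CPM in double knockout libraries (log2 fold change 1.26, SE 0.31, adjusted p = 0.0297 by edgeR). It lost the call without control replicate 1 (1.44), control replicate 2 (1.11) or double knockout replicate 1 (1.43). Ccl20, a chemokine that draws CCR6-bearing cells, had 3.99, 2.56 and 12.6 CPM against 1.30, 0.82 and 1.97 CPM (-2.17, SE 0.62, adjusted p = 0.0397). It kept the call only without control replicate 2, and was -1.17 without control replicate 3. Il1f5, an antagonist of the IL-36 receptor, was the most abundant not called, at 60.6 CPM and 81.5 CPM (adjusted p = 0.332 by edgeR).

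Of 16 other cytokine receptors of keratinocytes and their neighbours, all tested, 1 rose and 2 fell. Il1rl2, the IL-36 receptor, had 234, 194 and 238 CPM in controls and 673, 584 and 523 CPM in double knockout libraries, without overlap. Its log2 fold change was 1.34 (SE 0.14, adjusted p = 0.000875 by edgeR), it was close to the 1.33 of Il20ra, and it passed in 16 of 16 alternative analyses. Il2rg, the common gamma chain, fell by 1.35 on the log2 scale (adjusted p = 0.0380 by edgeR), from 17.6 ± 3.91 to 7.24 ± 3.73 CPM (SD, n = 3 each). Il18r1, an IL-18 receptor chain, fell by 1.19 (adjusted p = 0.0407 by edgeR), from 40.6 ± 11.3 to 18.8 ± 7.64 CPM (SD, n = 3 each). Il2rg kept its call only without double knockout replicate 1, and Il18r1 only without control replicate 3. In the other 5 fits the log2 fold change was -1.48 to -0.99 for Il2rg and -1.37 to -0.85 for Il18r1. Ifngr1, the interferon gamma receptor, was at 202 ± 58.8 CPM and 299 ± 6.87 CPM (SD, n = 3 each; adjusted p = 0.137 by edgeR).

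The 2 libraries labelled K14CreTfap2bfl/fl at 3 weeks differ from the others in age as well as genotype and entered no test. Osmr was at 94.7 and 103 CPM there, within the range of the controls at 6 months. Stat3 was at 311 and 239.5 CPM and Socs3 at 69.8 and 61.5 CPM, the latter below all 6 libraries at 6 months. Il20rb, at 159 and 199 CPM, was within the range of the controls. Il6ra was at 264 and 369 CPM, Il22ra1 at 63.7 and 95.7 CPM and Il17ra at 63.9 and 42.9 CPM, in each gene with 1 library within the range of the controls and the other above it. Replicate 1 of this group had 2610 CPM of the 8 fibroblast markers and 398 CPM of the 5 endothelial markers, against 23.3 and 0.320 CPM in replicate 2. The part of those cells in the values of replicate 1 was not tested.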

How the data were processed

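Total RNA of epidermal sheets was depleted of ribosomal RNA and sequenced as paired-end reads of 150 bp, per the labels' protocols. The authors deposited whole-number counts per gene, not normalized, 1 table per sample. Per the submitters' processing notes, Trimmomatic 0.36, STAR 2.5.2b and featureCounts of Subread 1.5.2 were used, with the builds GRCh38 and GRCm38 named without a role. The use of strand and of reads mapping to several places is not given in the sources used here, so overlapping genes can share counts. Of 49315 gene identifiers, 48970 were in GENCODE M21 (GRCm38), whose symbols were used. Coordinates are those of the files.

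Samples were grouped by their titles. The 3 double knockout and 3 control libraries at 6 months were fitted with edgeR 4.0.16 in R 4.3.3 (filterByExpr, TMM, glmQLFit with robust = TRUE, prior count 2, glmQLFTest). P-values were adjusted by Benjamini-Hochberg across every gene tested and called at 0.05. CPM and RPKM used total counts. Counts of PCR products without molecular identifiers are not independent molecules, so intervals from counts cover counting error only. Ratios used two-sided exact permutation tests. In data simulated from these libraries, no changed gene was called in the wrong direction and 4 unchanged genes were called. Alternatives were other scalings and filters, DESeq2 1.42.0, limma-voom (limma 3.58.1), the replicate number as a block, all 8 libraries in 1 fit, subtraction of the receptor-gene background, each library left out, and control replicate 3 alone.

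The 10 genes and all lists were chosen with earlier results of these data known. From each list, up to 4 called genes with the largest change and the most abundant tested gene not called were named. Of the called genes, 1 of the pathway lists is not reported here.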

Additional observations from a re-analysis of the deposited data

Results flagged for a closer look

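Il6st, the shared chain of IL-6 family receptors, had 479.7 CPM in replicate 1 and 524.2 CPM in replicate 2 of the group labelled K14CreTfap2bfl/fl at 3 weeks, which entered no comparison. Both values lay above all 3 controls and all 3 double knockout libraries at 6 months, whose highest value was 357 CPM. The difference was not tested, and age and genotype cannot be told apart in these libraries.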

How the results depend on the processing

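Every result is limited by the 3 libraries of each group and a high background in control replicates 1 and 2. It is also limited by genotype labels that the counts of the named genes did not check. Genes called numbered 2637, against 4809 without a filter, 1729 with the replicate number as a block, 437 with control replicate 3 alone, and 668 (without double knockout replicate 1) to 7544 (without control replicate 3) with each library left out; each of the other 4 left out gave 1043 to 1381. Of the 10 genes, 2 were called, 1 with all libraries in one fit, 0 with control replicate 3 alone, and 2 with any library left out. Among pathway genes 19 were called, against 31 by DESeq2, 12 with all libraries in one fit, 3 with control replicate 3 alone, and 6 to 36 with the same libraries left out. Samples of the same number correlated at 0.027, -0.16 and -0.059, and samples of different numbers at -0.11 to 0.17. These few values cannot decide whether samples of the same number were paired. With the replicate block 2 of the 10 genes and 18 pathway genes were called. The causes of these changes were not tested. Signs reversed only among log2 fold changes that were not called. With the background subtracted they were -0.030 for Socs3 and -0.039 for Il20rb. Il6ra was 0.053 with total counts and 0.097 without a filter. Il20rb was -0.014 with at least 10 counts in every library, -0.011 with limma-voom, -0.0054 with the block and -0.29 with control replicate 3 alone. With each library left out, Socs3 ran from -0.011 to 0.19, Il6st from -0.38 to 0.020, Il6ra from -0.19 to 0.22 and Il20rb from -0.24 to 0.30. Il24 had a ratio of 12.1 with the background subtracted and 19.3 with control replicate 3 alone.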

Other observations

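In replicate 1 of the libraries labelled K14CreTfap2bfl/fl at 3 weeks, whose fibroblast and endothelial markers were high, several genes of the pathway lists were detected that were at or near 0 in replicate 2, such as Il6, Lrg1 and Cxcl1. Il6 was at 13.7 CPM and 0 CPM, Lrg1, a secreted glycoprotein known as a STAT3 target, at 64.8 CPM and 0 CPM, and Cxcl1, a neutrophil chemokine, at 80.2 CPM and 0.40 CPM. In the same pair of libraries, Stat5a was at 93.7 and 33.9 CPM and Jak3 at 26.7 and 5.91 CPM.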
